A study of Rattus norvegicus with 8 samples.

Results

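The baseline transcriptome of cultured rat Sertoli cells was read from the single control array of the gene-level Affymetrix series. Its members were chosen from the array's annotation: every probe set that is not a control set and carries exactly 1 gene symbol, which kept 18771 of 29214 probe sets. These stand for 17582 named genes, a gene with several sets being taken at its highest one. Measured signal played no part in which sets were kept. It gave the order of genes and, for the 773 genes with several sets, the set that stands for the gene. The control array is 1 of 8 samples in the series and 1 of 4 gene-level arrays. It has no replicate on its platform, so every value below is a single reading with no error, and no test was possible.

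Rat testes were digested to a cell suspension, and the isolated cells were kept in DMEM/F12 medium with 10% fetal bovine serum. After 24 hours of primary culture they were divided into groups and cultured for another 24 hours. The control cultures received solvent. The other groups were exposed to NP at 0.1 µM, to MBP at 0.1 mM or to the combination, abbreviations that the labels leave unexplained. The untreated baseline is therefore that of cells in serum and solvent about 24 hours after the start of exposure, not that of cells fresh from the tubule. Age and strain of the rats, the number of animals and the purity of the cultures are not stated in the labels.

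Sertoli cells are the somatic cells of the seminiferous tubule. They surround the germ cells, seal the tubule with tight junctions, feed germ cells with lactate and iron, and answer follicle-stimulating hormone and testosterone. They arise under the transcription factors Sox9, Wt1 and Gata4, secrete anti-Müllerian hormone while immature, and carry the receptor Fshr. Peritubular myoid cells, which are contractile, wrap the tubule from outside, and Leydig cells, which make testosterone, lie between tubules. Both are neighbours that a digested testis also contains.

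Signal without a rat target was read from 45 antigenomic control sets, whose probes match no rat transcript. Their log2 signal ran from 2.06 to 9.78 around a median of 5.37, with 16 sets under 3 and 13 over 8. Background on such arrays depends on the base composition of the probes, which the files used here do not give, so the antigenomic sets describe a wide band and not 1 level. Their 95th percentile, 9.49, was taken as the level that a gene had to pass, and 4090 of the 17582 named genes, 23.3%, passed it. Every count of genes above the level given here is to be read against that 23.3%.

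That level is strict. The 1255 named olfactory, vomeronasal and taste receptor genes, sensory receptors best known from their own organs, though transcripts of some are known from testis and germ cells, had a median of 4.94 and a 95th percentile of 6.57, and 0 of them passed 9.49. Their signals are thus a comparison and not a proven zero. The highest of them was the olfactory receptor Olr396 at 8.72, by a set described as another gene. Its other set was at 5.52, and the next highest receptor genes, Olr1448 and Olr1, were at 8.21. Intronic control sets had a median of 6.18, and 30 of 1153 passed. Between 6.57 and 9.49 lay 9045 named genes, 51.4%, which passed the receptor genes' percentile but stayed in the antigenomic band. The remaining 4447, 25.3%, were at or below 6.57. Of the 16327 named genes outside the sensory receptor families, 13072, or 80.1%, passed 6.57. A gene in these lower ranges is not shown to be unexpressed.

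**Figure D1:**
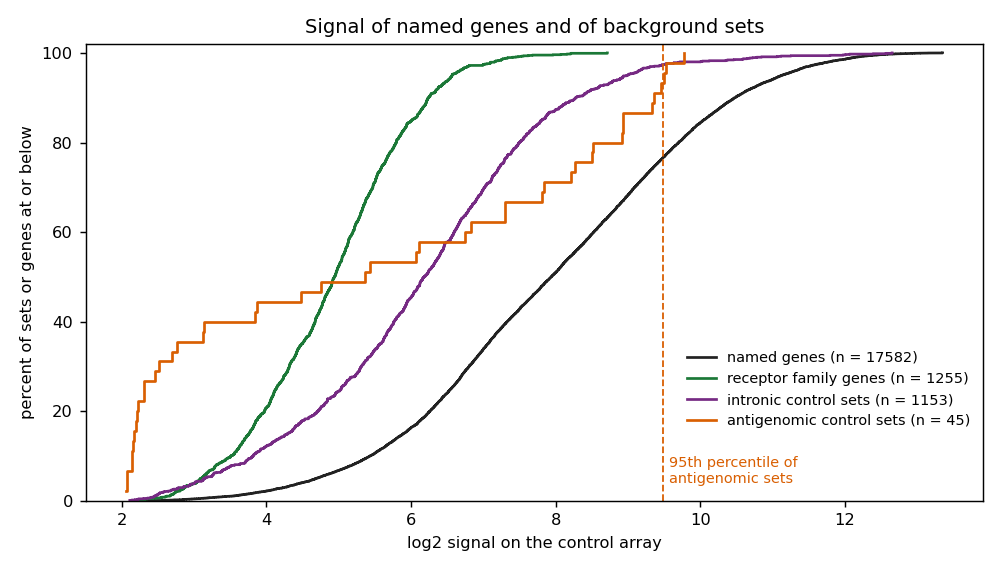
Cumulative percent of sets or genes (y axis) by log2 signal on the control array (x axis) for named genes, sensory receptor genes, intronic control sets and antigenomic control sets; the dashed line marks 9.49. The antigenomic curve climbs in steps from 2.06 to 9.78 and crosses the curves of the receptor genes, which end at 8.72, and of the intronic sets, while the named genes lie to the right of it throughout.

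Named genes had a median log2 signal of 7.94 and ran from 2.24 to 13.35. The control array lay close to the 3 arrays of treated cultures, which are not replicates of it. The median absolute distance of a named gene from their mean was 0.07 log2, and 17559 named genes, 99.9%, lay within 0.5. Signals of different probe sets depend on their probes as well as on the transcript, so ranks are an order of signals, not of transcript abundance, and they are not scaled to gene length.

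The 5 genes used here as Sertoli cell markers fell into separate ranges. Clu, the secreted chaperone clusterin that Sertoli cells release in large amounts, was at 11.45 (rank 561 of 17582; chromosome 15, 45365779 to 45405323 of the RGSC3.4 assembly). Sox9, the factor that directs Sertoli cell fate, was at 10.62 (rank 1523; chromosome 10, 102387471 to 102389219), and Wt1, a zinc finger factor needed to keep that fate, was at 9.69 (rank 3559; chromosome 3, 90529530 to 90576223). These 3 passed the level, Wt1 by the least, and at the highest antigenomic set, 9.78, Wt1 did not pass. Amh, the hormone of immature Sertoli cells, was at 7.43 (chromosome 7, 10417325 to 10419673), with 41.6% of named genes below it. On the other arrays Amh was at 7.45, 7.34 and 7.27, so it was in the antigenomic band on all 4.

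Fshr, the follicle-stimulating hormone receptor, has 2 probe sets that disagree. The set across the annotated gene (chromosome 6, 12925894 to 13161215), whose descriptions name the receptor, was at 6.70, with 27.8% of named genes below it. On the arrays of the NP, MBP and NP+MBP cultures this set was at 6.91, 7.11 and 7.08. The other set (chromosome 6, 13777540 to 13777880) was at 11.59, but its transcript descriptions name a pseudogene and Gapdh, the glycolytic enzyme glyceraldehyde-3-phosphate dehydrogenase, and not the receptor. The highest-set rule gives Fshr the value 11.59 and counts 4 of the 5 markers above the level. With sets left out whose annotation contradicts their symbol, Fshr was at 6.70 and 3 of 5 markers passed. A signal for the receptor itself was thus not separated from background on this array.

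The promoters of the pair of markers in the background range are shown because each holds a short element that its gene is known for, and neither gene passed the level with a set described as its own. Both come from RefSeq, build GRCr8, and run from 250 bases before to 50 after the annotated start. For Fshr (chr6:10952079-10952378, plus strand) the capitals mark the single match to the E-box CACGTG, beginning at position -54 from the start. For Amh (chr7:9559818-9560117, minus strand) they mark the single match to CAAGGTCA, the letters of an element bound by the nuclear receptor Nr5a1 (SF-1), beginning at -85. Searched on both strands in the first window of 27457 genes, CACGTG was present in 6.65% and CAAGGTCA in 1.48%. A match of letters says nothing of binding in these cells.
Fshr promoter: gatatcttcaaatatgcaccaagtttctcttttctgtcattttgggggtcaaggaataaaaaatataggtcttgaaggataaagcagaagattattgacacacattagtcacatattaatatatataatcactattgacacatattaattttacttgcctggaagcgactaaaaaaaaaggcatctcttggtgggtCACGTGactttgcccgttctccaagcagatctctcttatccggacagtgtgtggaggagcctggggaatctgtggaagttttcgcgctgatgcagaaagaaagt
Amh promoter: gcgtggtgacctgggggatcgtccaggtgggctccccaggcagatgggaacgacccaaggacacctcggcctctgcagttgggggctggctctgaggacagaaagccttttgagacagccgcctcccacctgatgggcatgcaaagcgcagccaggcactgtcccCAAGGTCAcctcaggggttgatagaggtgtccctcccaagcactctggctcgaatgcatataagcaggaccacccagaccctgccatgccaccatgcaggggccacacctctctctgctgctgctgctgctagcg

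Sertoli cell transcription factors were mostly in the band between the receptor genes and the antigenomic level. Of 19 measured, 6 passed, which is 31.6% beside the 23.3% of all named genes, and the list median was 8.91 beside 7.94. At 9.78, the highest antigenomic set, 4 of the 19 passed, which is near the share of all probe sets, 3677 of 18771. Gata4, a zinc finger factor of the gonadal soma, led at 10.99. Sox9 was at 10.62 and Sox4, of the same HMG-box family, at 9.83. Wt1 and the bHLH factor Tcf21, at 9.52, were also above the level. Nr5a1 was at 8.93 and Dmrt1, which guards male identity of Sertoli cells, at 8.35. The lowest were the homeodomain protein Hopx at 7.99, the orphan receptor Nr4a1 at 7.99, Emx2 at 6.79 and Gata1, a factor of mature Sertoli cells and of red cell precursors, at 6.68. No factor of the list lay at or below 6.57.

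Secreted products ran from 5.20 to 12.94, beside 2.24 to 13.35 for all named genes. Of 33 measured, 15 passed (45.5%), with a median of 8.94. The highest were the lectin Lgals1 at 12.94, the protease inhibitor Timp1 at 12.70, prosaposin (Psap) at 12.55, Timp2 at 12.11, the cysteine protease cathepsin L (Ctsl1) at 12.03 and Aard at 11.79. The list is not exclusive to Sertoli cells. Psap and Ctsl1, for example, are also on the list of iron, lysosome and protein secretion genes, which many cell types express. Among the hormones and growth factors of the list, Inhba, the activin beta A subunit, was at 11.35, and the inhibin alpha subunit Inha was at 8.94 and Inhbb at 8.72. Kitlg, the ligand that supports spermatogonia through Kit, was at 8.45, Dhh, the hedgehog ligand that acts on Leydig and myoid cells, at 8.25, and Gdnf, the stem cell factor of spermatogonia, at 7.89. Shbg, androgen-binding protein, was at 7.85. Of the hormones and growth factors named here, only Inhba passed. Cst12 at 6.74, Spinlw1 at 6.50, Il1a at 5.33 and Serpina5 at 5.20 were the lowest. Trf, the iron carrier transferrin, had no set under a single symbol and was not analysed here.

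Among receptors and membrane genes 8 of 19 passed (42.1%, median 9.02), or 7 without the contradicted Fshr set. Axl, a receptor for the clearing of dead germ cells, was highest at 11.75. The insulin-like growth factor receptor Igf1r was at 11.13, the BMP receptor Bmpr1a at 10.92, the interleukin 1 receptor Il1r1 at 10.38 and Notch2 at 10.32. This list, too, is not exclusive to Sertoli cells. Axl's relatives Tyro3 and Mertk were at 9.02 and 7.04. The lowest were the estrogen receptors, Esr1 at 7.19 and Esr2 at 6.27, with Mertk and the orphan receptor Gpr37 at 6.51 between them. This order has Fshr at its contradicted set. At the set described as the receptor, 6.70, Fshr would lie between Gpr37 and Mertk.

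Junction genes, which build the seal of the tubule, had 12 of 27 members above the level (44.4%) and a median of 9.34. Those above were led by genes of general adhesion, the integrin Itgb1 at 12.59, the catenins Ctnna1 at 11.72 and Ctnnb1 at 11.69, N-cadherin (Cdh2) at 11.08, connexin 43 (Gja1) at 11.06 and the scaffold Tjp1 at 10.72. Cldn11, the main claudin of the Sertoli cell barrier, was at 10.04 and led its family. It and Cldn12 at 9.50 were the only 2 of 22 claudins above the level (9.09%, family median 6.95). At 9.78, the highest antigenomic set, 1 claudin passed. Ocln was at 8.06 and Cldn3, a claudin of newly formed barrier, at 7.31. The lowest junction genes were Cdh1, the epithelial cadherin, at 7.26, Tjp3 at 7.06, Marveld2 at 6.95 and the endothelial claudin Cldn5 at 6.61. The lowest claudin was Cldn8 at 4.48.

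Genes that separate immature from mature Sertoli cells were mixed, with 6 of 12 above (50%, median 9.58). Gja1, the cell cycle inhibitor Cdkn1a at 10.71, the adhesion molecule Ncam1 at 10.32, Id2 at 10.07, Id3 at 9.91 and the cell cycle inhibitor Cdkn1b at 9.72 passed. Keratin 8 (Krt8) was at 9.43, just under, while Cdkn1c was at 7.59 and Krt19 at 7.17. None of 39 keratins passed (1 did with the mean of the 4 arrays), Krt8 and Krt7 at 9.26 being the highest of the family and Krt39 at 5.29 the lowest. Of 22 cell cycle genes, 6 passed (27.3%, median 8.99), which is near the share of all named genes. They were Ccnd2 at 11.77, the replication clamp Pcna at 9.85, Tyms at 9.79, Cdc20 at 9.78, Mcm2 at 9.67 and the proliferation antigen Mki67 at 9.59. The mitotic kinesin Kif11 at 8.16 and the mitotic kinases Ttk at 7.76, Aurka at 7.63 and Bub1b at 7.36 were the lowest, and the description of the Bub1b set names the kinase Bub1 instead.

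Contractile genes of myoid and smooth muscle cells stood at the top of the array. Of 20 measured, 19 passed (95%), the list median was 12.32, and 10 were among the 100 highest named genes. Tagln, the actin-binding protein transgelin (chromosome 8, 48902208 to 48907693), was at 13.01 and rank 11. The gamma smooth muscle actin Actg2 followed at 12.99, the LIM protein Csrp1 at 12.97, the actin crosslinker Flna at 12.81, the tropomyosin Tpm4 at 12.71 and the calponin Cnn3 at 12.67. Several of these are cytoskeletal genes of many cultured cells.

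Narrower smooth muscle genes were high as well. The calponin Cnn1 was at 12.62, the intermediate filament desmin (Des) at 12.41, the regulatory light chain Myl9 at 12.24 and the smooth muscle myosin heavy chain Myh11 at 12.06. The defining markers Myh11, Des and Cnn1 thus all passed. Mylk, the myosin light chain kinase, was at 11.27, Smtn at 10.98, Lmod1 and the coactivator Myocd both at 10.07, and Synpo2, the single member below the level, at 6.79. Acta2, alpha smooth muscle actin, has no set under its symbol here. A set with no symbol whose description names Acta2 was at 13.32. None of the 20 sets is marked as open to cross-hybridization.

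**Figure D2:**
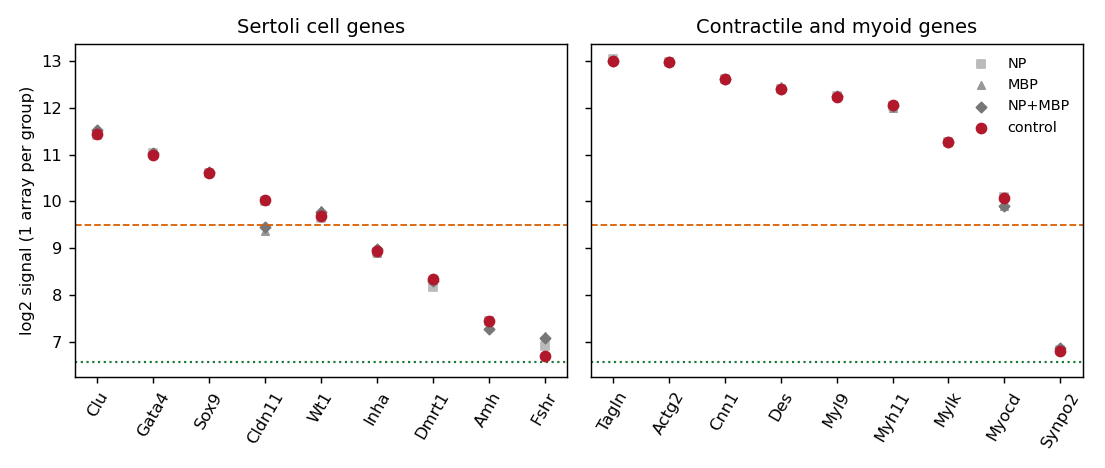
Log2 signal (y axis) of 9 Sertoli cell genes and 9 contractile genes (x axis) on the control array (red) and on the arrays of the NP, MBP and NP+MBP cultures (grey); dashed and dotted lines mark 9.49 and 6.57, and Fshr is shown at the set whose description names it. Except for Synpo2 at 6.79, the contractile genes lie above the dashed line on all 4 arrays, while Inha, Dmrt1, Amh and Fshr lie below it on all 4.

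The microRNA hairpin pair Mir143 and Mir145, transcribed together and known from smooth muscle, was also above the level. Hairpin sets passed in 5 of 222 cases (2.25%, family median 6.26): Mir207 at 11.20, Mir143 at 10.45, Mir145 at 10.21, Mir667 at 9.91 and Mir21 at 9.74. Such sets read RNA across the hairpin and do not measure the mature microRNA. Both hairpins are on the minus strand of chromosome 18, and their mature sequences from RefSeq (GRCr8) are shown because they are the contractile pair among the microRNA genes read here. Capitals mark the seed, bases 2 to 8, and the 4 seeds differ.
rno-miR-143-3p: uGAGAUGAagcacuguagcuca
rno-miR-143-5p: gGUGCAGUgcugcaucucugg
rno-miR-145-3p: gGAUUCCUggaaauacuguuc
rno-miR-145-5p: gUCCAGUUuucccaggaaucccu

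Matrix genes were nearly as high as the contractile ones. Of 28 fibroblast and matrix genes, 26 passed (92.9%, median 11.30), with 7 among the 100 highest. Sparc, a collagen-binding matrix protein, was at 13.09 and rank 8. Fibronectin (Fn1) was at 12.94, the collagen I chains Col1a1 and Col1a2 at 12.79 and 12.56, the basement membrane linker Nid1 at 12.58 and decorin (Dcn) at 12.47. The fibroblast markers Col3a1 and Pdgfra were at 11.73 and 11.06, both above the level. Lowest were Col5a1 at 9.92, the laminin chains Lama5 at 9.89 and Lama1 at 9.15, and the fibroblast protease Fap at 7.96. Of all 33 collagen genes 14 passed (42.4%), among them Col12a1 at 11.85 and, by a set described as the ribosomal gene Rpl11, Col19a1 at 9.63. The other set of Col19a1 was at 6.87. The lowest collagen was Col6a6 at 7.30.

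These lists are not exclusive to 1 cell type, since Sertoli cells in culture also make matrix and cytoskeletal proteins. In RNA of a whole culture, fewer cells of a type and less RNA per cell cannot be told apart. How far myoid or fibroblast cells contributed to these signals was not tested.

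Of 15 Leydig cell and steroid synthesis genes, 3 passed (20%), which is near the 23.3% of all named genes, and the median was 7.56 beside 7.94. Star, which carries cholesterol into mitochondria, was at 10.85, the steroid-reducing enzyme Akr1c14 at 10.28 and the electron donor Por at 9.61. The other defining genes stood in the background range, with the peptide hormone Insl3 at 7.67, the side-chain cleavage enzyme Cyp11a1 at 6.69, Cyp17a1 of androgen synthesis at 6.72 and the luteinizing hormone receptor Lhcgr at 5.28. Among defining Leydig genes 1 of 5 therefore passed. Hsd11b1 was at 8.60, Fdxr at 8.57 and Fdx1 at 8.14, whereas Hsd3b6 at 6.73, Hsd17b3 at 6.43 and the estrogen-making aromatase Cyp19a1 at 5.50 were low.

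Germ cell genes were almost wholly within the background band. In spermatogonial genes 1 of 21 passed (4.76%, median 7.16), Uchl1 at 11.09, a ubiquitin hydrolase of spermatogonia and of neurons. The next were Id4 at 8.0, the Gdnf receptor Gfra1 at 7.60, Sohlh1 at 7.55, Stra8 at 7.53 and Ret at 7.43. The defining genes Zbtb16, Kit and Dazl were at 7.32, 7.16 and 6.56. Lin28b at 6.21, Sohlh2 at 6.07, Pou5f1 at 5.79 and Mageb16 at 5.13 were the lowest.

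In meiotic genes 0 of 26 passed, with a median of 6.34. Hspa2 at 8.0, Mael at 7.88, Tex15 at 7.81, Tex101 at 7.47, the cohesin Stag3 at 7.37 and Piwil1 at 7.07 were the highest. The synaptonemal complex genes Sycp2 and Sycp1 were at 5.03 and 4.76, the mismatch repair gene Msh4 at 4.94 and Tex11 at 4.72. In spermatid genes 0 of 22 passed, with a median of 6.49. The tail fibre gene Odf2, which is also a centrosome gene, led at 9.02, followed by the protamines Prm1 at 8.18, Prm3 at 8.02 and Prm2 at 7.81, then Odf1 at 6.97 and Tssk6 at 6.81. The transition protein Tnp1 was at 6.58, and Izumo1 at 5.48, Spaca1 at 5.29, Acrv1 at 5.28 and Crisp2 at 5.10 were lowest. In both lists about as many members lay at or below 6.57 as above it, 14 of 26 and 12 of 22, beside 25.3% of all named genes.

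Immune genes gave no member above the level either. Of 24 macrophage genes 0 passed (median 6.92), the highest being the endotoxin coreceptor Cd14 at 8.64, then Tyrobp at 7.43, C1qc at 7.35, Fcer1g at 7.24, Cx3cr1 at 7.23 and Cd68 at 7.21. The defining genes Csf1r and Ptprc were at 7.04 and 6.42, the latter by a set described as Cct3, with the set described as Ptprc at 6.06. C1qa at 6.38, Itgam at 6.21, Aif1 at 6.17 and Cd163 at 6.06 closed the list. Of the 24, 18 lay between 6.57 and 9.49 and 6 at or below 6.57. That is near the share of all named genes, of which 25.3% lay at or below 6.57. Of 21 lymphocyte and mast cell genes 0 passed (median 6.19). Cd79a at 8.14, Gzmb at 7.31 and Cd5 at 7.24 were highest, and the T cell gene Cd3e at 6.13 and the mast cell protease Cpa3 at 4.30 were in the background range.

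Endothelial, erythroid and other organ genes served as further outside readings. Of 14 endothelial genes 0 passed (median 6.92), with the VEGF receptor Flt1 at 8.87, the endothelial cadherin Cdh5 at 8.57, Egfl7 at 8.13 and Esam at 7.99 highest and Robo4 at 6.29 lowest. Of 5 erythroid genes 0 passed, Klf1 at 7.76 being highest and Alas2, the first enzyme of erythroid haem synthesis, at 6.42. Of 28 genes of other organs 0 passed (median 6.70). Ttr, the liver transport protein, was listed at 9.22 from a set placed on the mitochondrial chromosome, and its other set was at 6.16. The muscle creatine kinase Ckm was at 8.96 and the skin gene Lor at 8.47, while pituitary Prl was at 5.64, lung Scgb1a1 at 5.57 and intestinal Fabp2 at 5.17. The lists with no member above were the meiotic, spermatid, macrophage, lymphocyte and mast cell, endothelial, erythroid and other organ lists. They held 140 measured members and are grouped here by that outcome, so their joint 0 is no separate result. The spermatogonial list, with 1 of 21 above, and the Leydig list, with 3 of 15, are not among them. With the mean of the 4 arrays, whose level was 9.33, 1 gene of the other organ list passed.

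**Figure D3:**
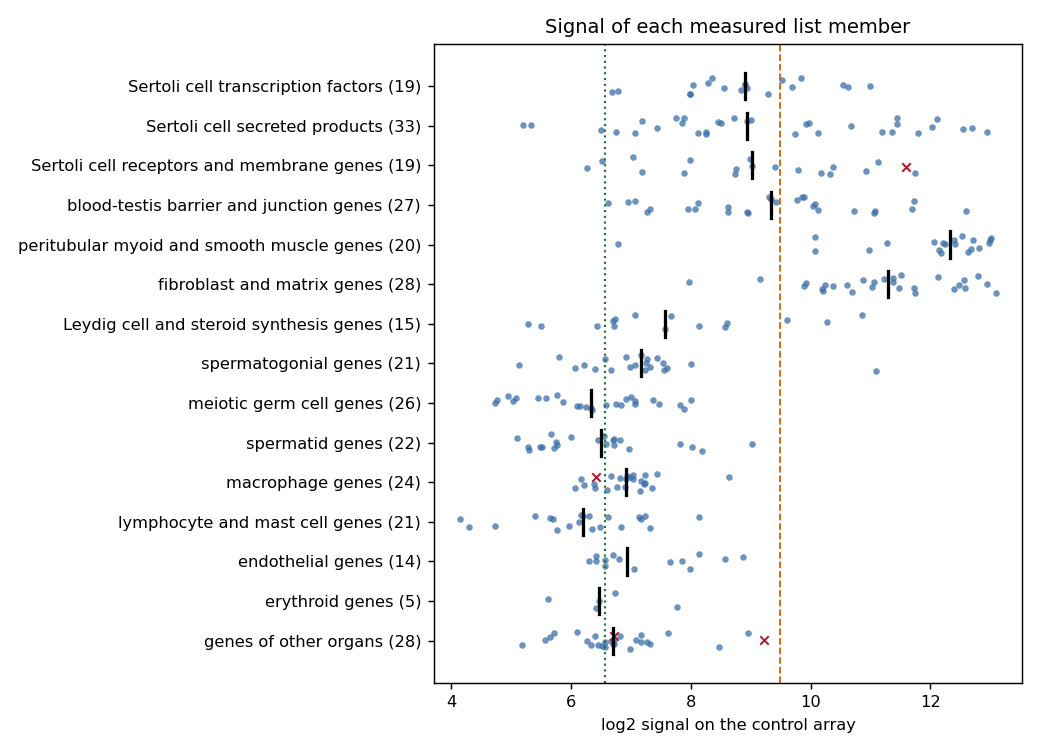
Log2 signal on the control array (x axis) of each measured member (points) of 15 cell type lists (y axis, number measured in parentheses); black bars are list medians, dashed and dotted lines mark 9.49 and 6.57, and crosses are genes whose set is annotated as another gene or lies on the mitochondrial chromosome. Myoid and matrix genes centre on 12.32 and 11.30, the Sertoli transcription factor, secreted and receptor lists on 8.91 to 9.02, and the germ and immune lists on 6.19 to 7.16.

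The 30 highest named genes ran from Actb, cytoplasmic beta actin, at 13.35 to the ribosomal stalk gene Rplp2 at 12.78. Among these 30 were 6 ribosomal protein genes, among them Rps20 at 13.19, Rps4x at 13.04, Rpl32 at 12.94, Rps6 at 12.85 and Rplp2. Eef1a1, an elongation factor, was at 13.15 and Gnb2l1, the ribosome scaffold Rack1, at 12.92. The mesenchymal filament vimentin (Vim), long used to stain Sertoli cells, was at 13.15. Also cytoskeletal were Tagln, Actg2, Csrp1 and Flna of the contractile list and the tubulin Tubb5 at 12.81.

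Matrix genes Sparc, Fn1 and Col1a1 were joined by the proteoglycan biglycan (Bgn) at 12.94 and by Igfbp7, a secreted binding protein, at 12.98. The remaining genes were the chaperone Hspa8 at 13.04, the iron store Ftl at 12.96, Lgals1, thioredoxin (Txn1) at 12.85, caveolin (Cav1) at 12.78, and lactate dehydrogenase A (Ldha) at 12.87. Ranks this close together have no meaning of their own: rank 31, Rhoa, was also at 12.78. The Sertoli transcription factors had 0 members in the top 100, which reached down to 12.36, and the secreted products had 3, Lgals1, Timp1 and Psap.

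Mitochondrial chromosome sets supplied 4 of the 30. The respiratory chain genes COX1, ND5 and COX2 were at 13.11, 12.92 and 12.86. The fourth carries the symbol Prkaa2, a kinase gene that RefSeq places on chromosome 5, but its set covers positions 69 to 1025 of the mitochondrial chromosome and read 13.13. The other set of Prkaa2 was at 8.72, so the high value cannot be assigned to the kinase. For 7 of the 30 (among them Eef1a1, Prkaa2, Rps4x, Hspa8, Rpl32 and Ldha) the highest set lies on another chromosome than the RefSeq gene, and 7 of the 30 are marked as open to cross-hybridization. Processed copies and related genes may share such probes, and those values are uncertain for a single gene. Symbols without a RefSeq entry, Ftl among them, could not be checked for chromosome.

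**Figure D4:**
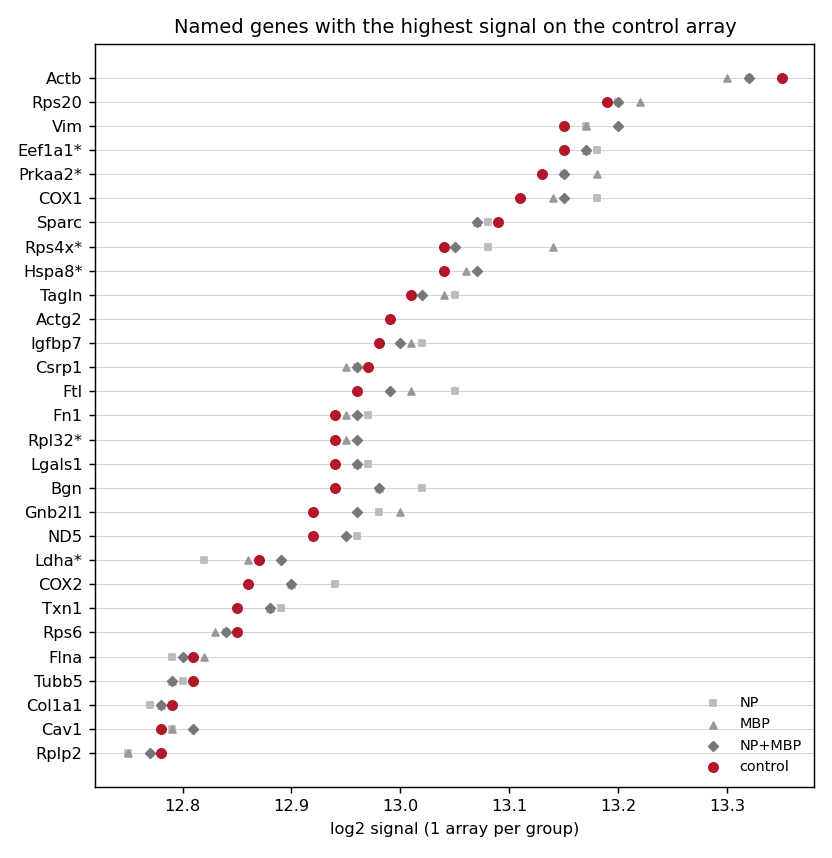
Log2 signal (x axis) of 29 of the 30 named genes with the highest signal on the control array (y axis, in rank order), on the control array (red) and the arrays of treated cultures (grey symbols); an asterisk marks a set on another chromosome than the RefSeq gene. Control signals run from 12.78 to 13.35.

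Sertoli cells are known to supply germ cells with lactate made by glycolysis. Of 18 glycolysis and lactate export genes, most of which many cell types express, 12 passed (66.7%, median 10.23). The highest were Ldha, the aldolase Aldoa at 12.66, the transporter chaperone Bsg at 12.47, Gpi at 12.23, Pgk1 at 11.60 and Ldhb at 11.42. The Ldha set used lies on chromosome 8, and the other set of Ldha was at 12.14. Of the lactate carriers only Slc16a3 at 9.61 passed. Slc16a7 was at 9.08 and Slc16a1 at 8.99, with the glucose transporter Slc2a3 at 9.11 and the hexokinase Hk2 at 8.29. Gapdh itself lies in 33 sets with several symbols, at 12.58 to 13.15, and was not counted.

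Genes of iron handling, lysosomes and protein secretion were high as a list, with 22 of 24 above (91.7%, median 12.02). Ftl at 12.96, the disulfide isomerase Pdia3 at 12.75, Psap, the ferritin chain Fth1 at 12.48 and the endoplasmic reticulum chaperones Hspa5 at 12.43 and Calr at 12.37 led it. The Ftl set used lies on chromosome X and is marked as open to cross-hybridization, and the other set of Ftl was at 12.92. The lysosomal enzyme Hexa at 10.18, the iron transporter Slc11a2 at 9.69, the transferrin receptor Tfrc at 9.41 and the iron exporter Slc40a1 at 8.10 were lowest. Many cell types express this list.

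Immediate early and stress genes had 9 of 18 members above (50%, median 9.37). The matricellular genes Cyr61 at 12.58 and Ctgf at 12.44 and the small heat shock gene Hspb1 at 12.24 were highest, with Ier3 at 11.63 and Egr1 at 10.29 next. Fos was at 8.24, Fosl1 at 8.15, the haem oxygenase Hmox1 at 8.04 and Ier2 at 7.93. The classic early gene Fos was in the antigenomic band.

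Gene families of general upkeep were mostly above the level, histone genes excepted. Ribosomal protein genes passed in 57 of 63 cases (90.5%, median 12.13), although 37 of the 63 sets are open to cross-hybridization. The muscle paralogue Rpl3l at 6.87 and Rps27 at 6.20 were lowest. Proteasome subunits passed in 29 of 36 cases (80.6%, median 10.53), led by Psmb2 at 11.91, and the thymus-restricted subunit Psmb11 was lowest at 6.55. Complex I subunits passed in 28 of 38 cases (73.7%, median 10.45), from Ndufc2 at 11.96 to Ndufb4l1 at 5.72. Histone genes passed in 17 of 34 cases (50%, median 9.46), led by Hist2h3c2 at 12.46 and the replacement histone H3f3b at 12.44.

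Families with restricted expression were mostly below it. Hox genes, which carry position along the body axis, passed in 2 of 28 cases (7.14%, median 7.34), Hoxd10 at 10.23 and Hoxd9 at 9.79, with Hoxc8 next at 8.65 and Hoxb5 lowest at 4.74. Interleukins and their receptors passed in 2 of 44 cases (4.55%, median 6.43), Il1r1 and Il17b at 10.06. Of 45 defensins 0 passed, the highest being Defb36 at 8.12.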

How the data were processed

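Total RNA of primary rat Sertoli cell cultures was measured on gene-level Affymetrix arrays, 1 per group. Groups were taken from sample titles, and the array type from the value tables. The authors deposited log2 signals, and per the file headers these came from RMA at the gene level. MAS5 is the tool given, unversioned, in the submitters' processing notes, and the sources thus differ. A deposited workbook gives the same control column (largest difference 2e-15), symbols, control classes and RGSC3.4 positions. Its 3 other per-sample columns were not used, nor were the microRNA arrays. Depth does not apply to arrays, and 1 array limits the precision of every value.

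A gene was taken at its highest probe set with 1 symbol. Genes, lists and levels were chosen with earlier results of these data known. Of 474 list entries, 55 were not analysed here because no set carried their symbol alone. The text names the 30 highest genes, the given and defining markers, the 6 highest and 4 lowest of a list and the 3 highest and 2 lowest of a family, as space allowed and except some that are not reported here, plus known Sertoli, Leydig and contractile members picked after their values were seen. Symbols, accessions and Ensembl genes in the transcript descriptions were looked up in RefSeq (GRCr8), which holds 13655 of the 17582 symbols. Of 18771 sets, 1803 had descriptions naming no gene that could be matched, which alone did not count as a contradiction. Another 142 were described only as another gene, and 5 lay on the mitochondrial chromosome while RefSeq places their gene elsewhere. These 147 sets, counted as contradicting their symbol, are the highest set of 101 genes. An older gene name can also count as a contradiction. Of 773 genes with several sets, 144 had sets on both sides of the level.

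Alternatives were other background levels, the workbook values, the mean of the 4 arrays, the mean of a gene's sets, and leaving out sets open to cross-hybridization or contradicting their symbol. Counting was tested on simulated data. Python 3.11.15, numpy 2.4.6, pandas 2.3.3 and matplotlib 3.10.9 were used.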

Additional observations from a re-analysis of the deposited data

Results flagged for a closer look

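Signal above the level of the antigenomic sets was also present outside the named genes. A set with no symbol, whose description names the smooth muscle actin Acta2, read 13.32 on the control array. Among the 2013 sets with several symbols, 555 passed the level, and among the 6812 sets with no symbol, 531 did. The highest set with no symbol is described as 18S ribosomal RNA and read 13.43, and one described as 28S ribosomal RNA read 13.36. Of the 1153 intronic control sets, 30 passed. Groups had 1 array each, so no array could be set against others of its group.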

How the results depend on the processing

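Counts depended chiefly on the background level, and by construction a lower level passes more genes. In the order antigenomic median plus 1 (6.37), 75th percentile of intronic sets (7.24) and 95th percentile of sensory receptor genes (6.57, added after seeing the data), probe sets above numbered 14697, 11633 and 14059 in place of 4489, and list members 352, 262 and 331 in place of 144. Of 19 Sertoli transcription factors, 19, 17 and 19 passed in place of 6. Of 33 secreted products it was 31, 27 and 30 in place of 15, and of 19 receptors 18, 15 and 17 in place of 8. Of 15 Leydig genes, 13, 8 and 12 passed in place of 3, and of 21 spermatogonial genes 17, 9 and 15 in place of 1. Of 26 meiotic genes 12, 5 and 12 passed, of 22 spermatid genes 12, 4 and 10, and of 24 macrophage genes 21, 3 and 18, each in place of 0. These list counts are to be read against all 18771 probe sets, of which 14697, 11633 and 14059 passed at the same levels. At 6.57 only 25.3% of all named genes did not pass. Myoid genes stayed at 19 or 20 and matrix genes at 26 or 28 under these levels and under the highest antigenomic set (9.78), where 3677 probe sets and 131 list members passed, the Sertoli transcription factors numbered 4, and Wt1 and Mki67 did not pass. With the mean of the 4 arrays (level 9.33), genes of other organs and keratins each numbered 1 in place of 0. Without sets whose annotation contradicts their symbol (added after seeing the data), 4458 probe sets and 143 list members passed, and Fshr was below the level. Fshr was also below it without sets open to cross-hybridization and with the mean of its sets. Of the 30 highest genes, 30 were shared with the workbook values, 29 with the mean of the 4 arrays, 28 with the mean of a gene's sets, 24 without sets open to cross-hybridization and 29 without contradicted sets. No paired analysis was possible because each group had 1 array on this platform. A minimum of 10 probes per set was not run, since the files used give no probe number.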

Other observations

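Over the chromosomes with at least 100 named genes, the share above the level was lowest on chromosome 1, 20.3% of 2387 genes, and highest on chromosome 19, 28% of 454. The X chromosome stood at 20.9% of 678 genes, beside 23.3% of all named genes. Only 2 of 12 listed genes of the sex chromosomes had a set under a single symbol, Ddx3x at 10.26 and Kdm6a at 9.77.

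Of the 101 genes whose highest set contradicts its symbol, 26 were above the level, and Fshr was 1 of them. Car4, a carbonic anhydrase, was listed at 11.12 from a set described as the ribosomal gene Rpl37a, and its other set read 6.82. Gcnt3, a mucin-modifying enzyme, was listed at 10.29 from a set described as Selk, and its other set read 5.85. Mdh1b was listed at 10.00 from a set described as the chaperone gene Dnaja1, and its other set read 5.81. These genes were picked after their values were seen.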
